A study of Mus musculus with 9 samples.

Results

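The genes described here carry the Indian hedgehog and parathyroid hormone-related protein (PTHrP) signals between cartilage and bone. They are the 9 genes Ihh, Ptch1, Smo, Gli1, Gli2, Gli3, Hhip, Pthlh and Pth1r, chosen by name from the 39179 genes counted in every library. The study compared the ossification front (OF), the zone below the growth plate where vessels and osteoblasts advance, in femurs of mice 4 weeks old (juvenile, 5 libraries) and 12 weeks old (adult, 4 libraries). All were Tg(TIE2GFP)287Sato/J mice with C57BL/6 given as their origin and no treatment named, in which the Tie2 promoter drives GFP in endothelial cells so that vessels can be seen for cutting. Single capillaries with the cells around them were cut by laser from frozen sections 12 µm thick, and their polyadenylated RNA was amplified and sequenced. A library therefore holds a mixture of cells chosen by position, not a sorted cell type.

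Indian hedgehog is secreted by prehypertrophic and early hypertrophic chondrocytes. It binds Patched 1, which then releases Smoothened, and the signal reaches the nucleus through the GLI transcription factors in growth plate chondrocytes and in osteoblast precursors of the bone front. PTHrP, the product of Pthlh, comes from cells at the far end of the growth plate and holds chondrocytes back from hypertrophy through the receptor encoded by Pth1r, which couples to cyclic AMP. Osteoblasts use the same receptor to respond to parathyroid hormone. Gli1, Ptch1 and Hhip are themselves switched on by hedgehog signalling, and Ptch1 and Hhip restrain it, so their transcripts are commonly read as a record of the signal.

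Library totals ranged from 4856833 to 8077362 counts. Values per library are given as CPM, that is, counts relative to the library size after TMM scaling, and 3 counts, taken as the floor of detection, correspond to 0.347 to 0.638 CPM. This floor and the counting intervals below cover counting error only, because amplified reads are not independent molecules. All 10 endothelial and all 12 osteoblast marker genes had counts in every library. The summed endothelial markers stood at 664 to 1023 CPM in juvenile and 814 to 1027 CPM in adult libraries. Summed osteoblast markers stood at 171097 to 213048 CPM in juvenile and 63239 to 93683 CPM in adult libraries, without overlap. Most of these sums were Col1a1 and Col1a2, at means of 75812 and 82107 CPM in juvenile and 29303 and 34403 CPM in adult libraries. Of the 12 osteoblast markers, 6 were called higher in juvenile libraries and 2, the osteocalcin genes Bglap and Bglap2, higher in adult libraries, with log2 fold changes of -2.04 and -2.38 (edgeR adjusted p 0.0151 and 0.00827). Summed erythroid markers were at 419 to 2555 CPM and 4716 to 36998 CPM. Juvenile replicates 4 and 5 held more Y-linked than Xist counts and the other 7 libraries the reverse. With bulk libraries, fewer cells of a type and less RNA per cell cannot be told apart.

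Both pathways were represented by their receptors and nuclear factors in every library, while the 2 ligand genes were missing from most. Ptch1, Smo, Gli1, Gli2, Gli3 and Pth1r had counts in all 9 libraries and Hhip in 8, against 4 libraries for Ihh and 2 for Pthlh. Of the 9 genes, 8 passed the filter on low counts and were tested between the ages, and Pthlh did not. Ihh passed through 3 adult libraries and juvenile replicate 5, so its difference was partly set by the filter. In edgeR's quasi-likelihood test with Benjamini-Hochberg adjustment over 13418 genes, 0 of the 8 had an adjusted p under 0.05, where 3.88% of all tested genes did, 1.99% higher in juvenile and 1.89% higher in adult libraries. At an unadjusted p under 0.05 in edgeR there were 4 of the 8, namely Gli1, Ptch1, Ihh and Gli2, where 17.3% of all tested genes passed. That count was 2 of 8 without juvenile replicate 1, 2 of 7 without juvenile replicate 5 and 6 of 8 in limma voom. The share of all tested genes at an unadjusted p under 0.05 was not taken in these other fits. Their counts therefore cannot be read against a background. DESeq2 at default settings gave 8 of them an adjusted p and called 1, Gli1, where it called 9.47% of all genes with an adjusted p. The limma voom fit called 0 of 8, against 3.64% of all tested genes. The median log2 fold change, juvenile over adult, was 0.94 over the 8 genes and -0.01 over all tested genes. Because earlier results of these data were known when the genes were chosen, these counts are a description of the genes and not a test of the set.

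**Figure D1:**
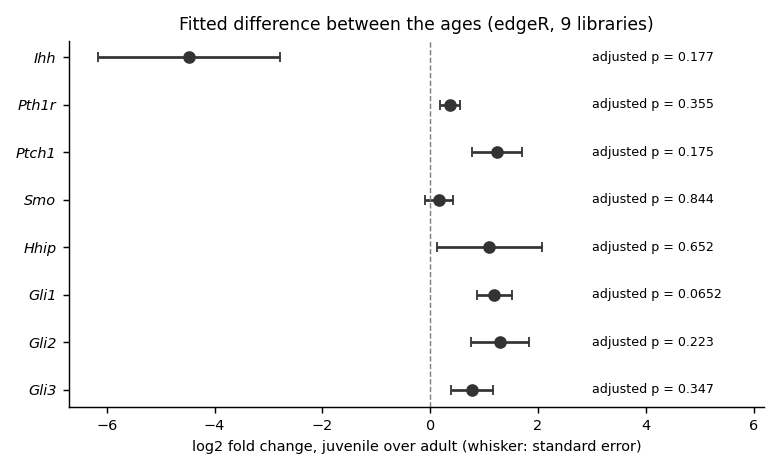
Fitted log2 fold change, juvenile over adult, with its standard error, for the 8 genes that passed the filter on low counts (edgeR, 5 juvenile and 4 adult libraries). Of the 8 points, 7 lie right of 0 and Ihh lies left of it at -4.47, and the smallest adjusted p, 0.0652, belongs to Gli1.

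The ligand genes were the sparsest. Ihh (ENSMUSG00000006538, GRCm38 chromosome 1, 74945315 to 74951672, minus strand, 2 transcripts) encodes the hedgehog ligand of the growth plate. It had 0 counts in juvenile replicates 1 to 4 and 10 counts in juvenile replicate 5, which is 2.12 CPM (95% exact Poisson interval 1.02 to 3.90). Adult replicates 1, 2 and 4 held 141, 95 and 45 counts, or 16.3, 15.9 and 5.64 CPM, and adult replicate 3 held 0. These 3 adult libraries thus stood above every juvenile library, and the ages overlapped because adult replicate 3 stood at the level of the juvenile libraries without counts. The fitted log2 fold change was -4.47 with a standard error (SE) of 1.69 and edgeR adjusted p 0.177, with 4 of the 5 juvenile libraries at 0. It became -8.88 with the replicate number as a block (edgeR adjusted p 0.145) and -9.01 without juvenile replicates 4 and 5 (edgeR adjusted p 0.2), when every juvenile library was at 0, so the size of the fitted value is no measure of the difference. Without juvenile replicate 5 the gene no longer passed the filter, and every remaining juvenile library was at 0.

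Pthlh (ENSMUSG00000048776, chromosome 6, 147252101 to 147264183, minus strand, 2 transcripts), the PTHrP gene, was found in still fewer libraries. Juvenile replicate 5 held 18 counts, or 3.82 CPM (95% exact Poisson interval 2.26 to 6.03), and adult replicate 1 held 86 counts, or 9.94 CPM (95% exact Poisson interval 7.95 to 12.3). The other 7 libraries held 0 counts of Pthlh. One library of each age therefore carried all of its counts, and no difference between the ages could be read from them. When genes were not filtered, the log2 fold change of Pthlh was -1.74 with an adjusted p of 0.701 (edgeR). The ligand genes Shh, Dhh, Pth and Pth2 and Pth2r, another receptor of the parathyroid hormone family, had 0 counts in all 9 libraries. By counting error alone, that allows each of them at most 0.347 to 0.638 CPM in a library.

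Because growth plate chondrocytes are the known source of Ihh, its counts were set beside 17 chondrocyte marker genes. Adult replicates 1, 2 and 4, the adult libraries with Ihh, had counts on 14, 17 and 14 of the markers, and adult replicate 3, without Ihh, on 7. Col10a1, the collagen of hypertrophic cartilage, stood at 47.5, 709 and 134 CPM in the same 3 libraries and at 2.10 CPM in adult replicate 3. Other hypertrophic markers did not all follow it. Panx3 and Runx3 stood at 82.3 and 16.3 CPM in adult replicate 3, above the 52.9 and 14.0 CPM of adult replicate 4. Mmp13 and Ibsp, at 3889 and 9738 CPM in adult replicate 3, were lower in adult replicates 1 and 4. Mef2c was lowest in adult replicate 3, at 315 CPM against up to 326 CPM in the other adult libraries. Among adult libraries, Ihh was missing from the one with counts on the fewest of the 17 chondrocyte markers. The juvenile libraries did not follow this order. Juvenile replicates 1 to 4, in which Ihh had 0 counts, had counts on 12 to 14 of the 17 markers and Col10a1 at 195 to 667 CPM. The number of markers with counts does not measure their level. Summed over the 17 markers the level was 2307 to 3525 CPM in juvenile and 2029 to 6261 CPM in adult libraries, but Col11a2 alone made up 1992 to 3336 CPM of the juvenile and 1411 to 1571 CPM of the adult sums. Col11a2 was called higher in juvenile libraries (log2 fold change 0.80, SE 0.18, edgeR adjusted p 0.0263). In contrast, Col2a1, the main cartilage collagen, was higher in adult libraries, at 528 to 3117 CPM against 132 to 307 CPM (log2 fold change -2.62, SE 0.48, edgeR adjusted p 0.0118). Comp was also called higher in adult libraries (log2 fold change -5.03, SE 1.16, edgeR adjusted p 0.0317). Of the 12 chondrocyte markers tested, only 1 had a positive log2 fold change, and their median was -2.22. The part of cartilage content in the Ihh values was not tested.

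**Figure D2:**
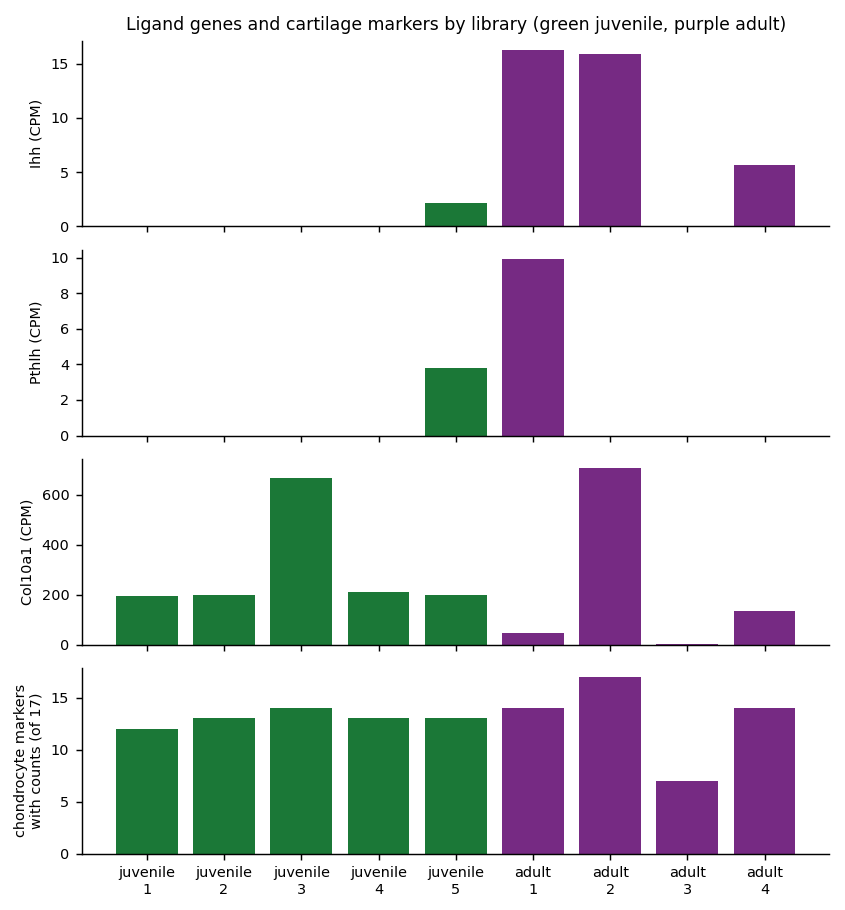
CPM of Ihh, Pthlh and Col10a1 and the number of 17 chondrocyte marker genes with counts, by library (green, juvenile; purple, adult). Ihh is at 0 in juvenile replicates 1 to 4, where Col10a1 stands at 195 to 667 CPM, and in adult replicate 3, where Col10a1 stands at 2.10 CPM.

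Of the hedgehog receptors, Ptch1 (ENSMUSG00000021466, chromosome 13, 63508328 to 63573598, minus strand, 10 transcripts) encodes the receptor that both binds the ligand and is induced by it. Its CPM in juvenile replicates 1 to 5 was 47.3, 30.1, 18.1, 29.1 and 13.1, and in adult replicates 1 to 4 it was 7.63, 17.4, 9.16 and 12.5. Juvenile replicate 5 lay below adult replicate 2, and the other 4 juvenile libraries lay above every adult library. Means were 27.5 ± 13.2 CPM (SD, n = 5) and 11.7 ± 4.32 CPM (SD, n = 4), 2.36-fold higher in juvenile mice. The log2 fold change was 1.24 with SE 0.47 and edgeR adjusted p 0.175, which did not pass.

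Smo (ENSMUSG00000001761, chromosome 6, 29735503 to 29761365, plus strand, 2 transcripts) encodes Smoothened, the transducer that Patched 1 holds inactive and that is not itself a target of the pathway. It stood at 63.3, 67.4, 85.1, 46.0 and 88.0 CPM in juvenile replicates 1 to 5 and at 65.1, 80.8, 64.6 and 40.0 CPM in adult replicates 1 to 4. The ages covered nearly the same range, with replicate 4 the lowest library in each. The log2 fold change of Smo was 0.16 with SE 0.27 and edgeR adjusted p 0.844, and without adult replicate 4 it turned to -0.02.

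Hhip (ENSMUSG00000064325, chromosome 8, 79965851 to 80058006, minus strand, 2 transcripts) encodes a membrane protein that captures hedgehog ligands and so limits the signal. It stood at 37.3, 9.36, 18.9, 29.1 and 10.4 CPM in juvenile replicates 1 to 5. In adult replicates 1 to 4 the values were 0, 25.6, 9.03 and 4.89 CPM. The 2 highest juvenile libraries were replicates 1 and 4, and the adult libraries ran from no counts to a level inside the juvenile range. Hhip had the widest standard error after Ihh, at a log2 fold change of 1.10 (SE 0.97) with edgeR adjusted p 0.652, and it ran from 0.67 without adult replicate 1, the library at 0, to 2.16 without adult replicate 2 and 2.90 in limma voom, never called.

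Of the GLI factors, Gli1 (ENSMUSG00000025407, chromosome 10, 127329882 to 127341974, minus strand, 5 transcripts) encodes the activator whose transcription depends most directly on the pathway. Its CPM was 96.3, 50.9, 61.3, 119.8 and 53.2 in juvenile replicates 1 to 5 and 34.9, 28.7, 23.0 and 47.2 in adult replicates 1 to 4. Every juvenile library lay above every adult library, the closest being juvenile replicate 2 and adult replicate 4. Of the 8 tested genes only Gli1 had no overlap between the ages, where 9.15% of all tested genes had none. Means were 76.3 ± 30.4 CPM (SD, n = 5) and 33.5 ± 10.4 CPM (SD, n = 4). The fold change on the log2 scale was 1.19 (SE 0.33), with an unadjusted p of 0.00312 and an adjusted p of 0.0652 in edgeR's quasi-likelihood test. The gene thus stayed short of the threshold in edgeR and passed it in DESeq2, where the log2 fold change was 1.16 and the adjusted p was 0.0118. Over the 19 alternatives the log2 fold change of Gli1 stayed between 0.97 and 1.38 and the adjusted p ran from 0.0118 to 0.249. The highest of these p-values came from the 7 libraries left without juvenile replicates 4 and 5. Exons of Arhgap9 cover 1.24% of the Gli1 exons on the opposite strand and those of the antisense gene Gm47200 cover 5.31%, so a small part of its counts could come from them.

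**Figure D3:**
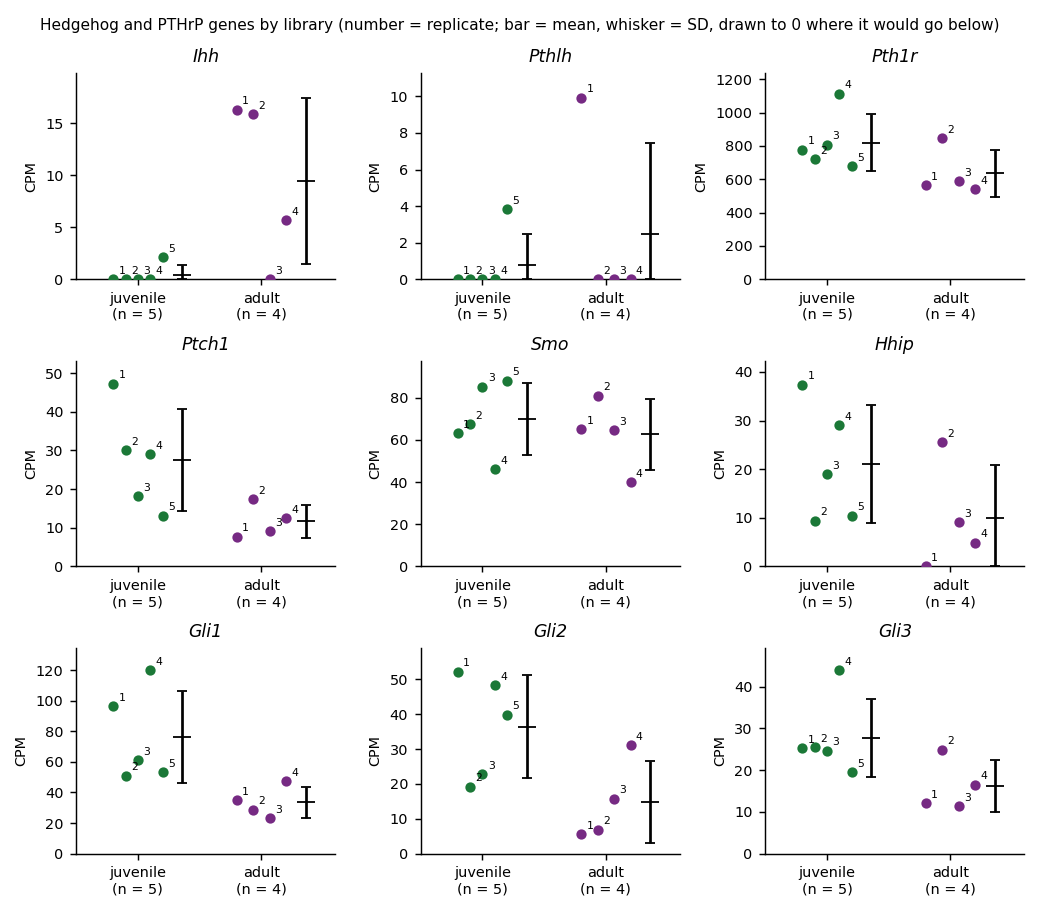
CPM of each gene in each library (points, numbered by replicate), with the mean and SD of the 5 juvenile (green) and 4 adult (purple) libraries. Gli1 is the gene whose ages do not overlap, at 50.9 to 119.8 CPM against 23.0 to 47.2 CPM, whereas Ihh and Pthlh lie at 0 in most libraries.

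Gli2 (ENSMUSG00000048402, chromosome 1, 118834132 to 119053619, minus strand, 9 transcripts) encodes the main activator of primary hedgehog responses. It stood at 52.2, 19.2, 22.8, 48.2 and 39.8 CPM in juvenile and at 5.55, 6.85, 15.7 and 31.1 CPM in adult replicates. Adult replicate 4 reached above the 2 lowest juvenile libraries, and the other adult libraries lay below all of them. The log2 fold change of Gli2 was 1.30 with SE 0.54 and edgeR adjusted p 0.223, and without adult replicate 4 it was 1.94 (edgeR adjusted p 0.0702).

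Gli3 (ENSMUSG00000021318, chromosome 13, 15463235 to 15730026, plus strand, 4 transcripts) encodes the factor that is processed to the main repressor form in the absence of ligand. Its CPM was 25.2, 25.5, 24.7, 43.9 and 19.5 in juvenile replicates and 12.1, 24.9, 11.4 and 16.5 in adult replicates. Juvenile replicate 4 stood apart from the others, and adult replicate 2 lay among the juvenile libraries. The log2 fold change was 0.78 with SE 0.40 and edgeR adjusted p 0.347. Of the GLI genes, replicates 1 and 4 were the 2 highest juvenile libraries for Gli1 and Gli2, as they were for Hhip, while for Gli3 replicate 1 lay with the rest.

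The receptor Pth1r (ENSMUSG00000032492, chromosome 9, 110722085 to 110747145, minus strand, 6 transcripts) was by far the most abundant of the 9 genes. Between 3204 and 5935 reads were counted on it in each library. In juvenile replicates 1 to 5 it stood at 777, 721, 807, 1114 and 679 CPM and in adult replicates 1 to 4 at 564, 847, 588 and 539 CPM. Adult replicate 2 lay above 4 of the juvenile libraries, and the other 3 adult libraries lay below all of them. Means were 819 ± 172 CPM (SD, n = 5) and 635 ± 143 CPM (SD, n = 4), 1.29-fold higher in juvenile mice. The log2 fold change was 0.37 with SE 0.19 and edgeR adjusted p 0.355, the smallest SE of the 8. With single libraries left out it ran from 0.23 without juvenile replicate 4 to 0.52 without adult replicate 2.

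Levels of different genes were compared as TPM, counts per exon length scaled to the same total in each library. Pth1r averaged 632 ± 157 TPM (SD, n = 9) and ranked 97 to 258 among the 14983 to 16566 genes with counts in a library. Smo followed at 29.8 ± 7.90 TPM and Gli1 at 28.8 ± 16.0 TPM (SD, n = 9). Pth1r exceeded Smo in 9 of 9 libraries, whereas Smo exceeded Gli1 in 6 of 9, so Smo and Gli1 did not differ beyond their spread. Gli1 lay above Gli2, at 9.81 ± 6.22 TPM (SD, n = 9), in 9 of 9 libraries. Below them, over all 9 libraries, the order was Gli3, Hhip, Ptch1, Ihh and Pthlh, with mean levels of 5.93, 4.42, 3.62, 3.58 and 2.38 TPM. The order of the means was not the same within each age. Mean Gli1 was above mean Smo in juvenile libraries, at 38.8 and 32.0 TPM, and below it in adult libraries, at 16.4 and 27.1 TPM. Library by library, Smo exceeded Gli1 in 3 of 5 juvenile and 3 of 4 adult libraries. Ihh had the lowest mean of the 9 genes in juvenile libraries, at 0.36 TPM, and the fourth highest in adult libraries, at 7.60 TPM, above Gli2 at 5.24 TPM. None of the neighbours from Gli2 downwards kept its order in all 9 libraries. Ptch1 exceeded Ihh in 5 of 5 juvenile and 1 of 4 adult libraries, and in adult replicate 1 the ligand gene Ihh stood at 13.3 TPM where Ptch1 was at 1.34 TPM.

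**Figure D4:**
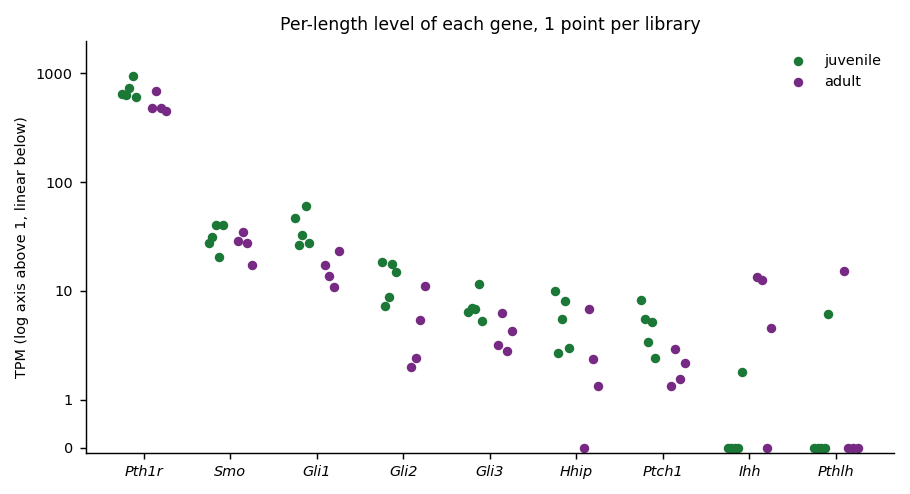
TPM of the 9 genes in each library (log axis above 1, linear below), ordered by their mean over the 9 libraries, with juvenile libraries in green and adult libraries in purple. Pth1r stands above 453 TPM in every library, and Ihh and Pthlh span from 0 to 13.3 and 15.3 TPM.

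Ratios within a library, which do not depend on its depth, described the balance of the pathway. Of the summed TPM of the GLI genes, Gli1 took 64.6 ± 4.07% (SD, n = 5) at the juvenile and 64.0 ± 8.97% (SD, n = 4) at the adult age. The share of Gli3 was 12.8 ± 3.08% (SD, n = 5) and 16.9 ± 7.46% (SD, n = 4). That of Gli2 was 22.6 ± 5.85% (SD, n = 5) and 19.2 ± 10.9% (SD, n = 4). For each GLI gene, the shares of the libraries overlapped between the ages. The TPM of Gli1 was 4.80 to 11.7 times that of Ptch1 in juvenile libraries and 4.70 to 13.0 times in adult libraries. Smo stood at 3.37 to 16.9 times Ptch1 in juvenile and 8.05 to 21.5 times in adult libraries, with overlap. These ratios were not tested.

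Most called osteoblast markers were themselves higher in juvenile libraries. For that reason each of the 8 tested genes was also set against the mean of the osteoblast markers on the log2 CPM scale. The mean of the 12 markers was 10.75 ± 0.04 (SD, n = 5) for the juvenile and 10.35 ± 0.28 (SD, n = 4) for the adult age. The mean takes in Bglap and Bglap2, which went the other way. Relative to this mean, Pth1r stood at -1.10 ± 0.26 (SD, n = 5) and -1.06 ± 0.39 (SD, n = 4), a difference of -0.04, and against the median of the markers the difference was 0.40. Gli1 stood at -4.58 ± 0.52 (SD, n = 5) and -5.32 ± 0.67 (SD, n = 4) relative to the mean, and Ptch1 at -6.09 ± 0.67 and -6.83 ± 0.71. The difference between the ages was 0.74 for both genes, and 1.17 for Gli1 and 1.18 for Ptch1 against the median of the markers. For Smo, Gli2, Gli3, Hhip and Ihh it was -0.24, 1.09, 0.37, 1.65 and -3.74 relative to the mean. Against the median, that of Smo was 0.19. The median is not free of the osteocalcin genes either. On average Bglap2 stood below Alpl, another marker, in juvenile libraries, at 319 and 1400 CPM. In adult libraries it stood above Alpl, at 1665 and 892 CPM. No scaling without Bglap and Bglap2 was made. Relative to the mean, the ages overlapped for Gli1, as they did for Ptch1 also without scaling. Relative to the mean of the chondrocyte markers, the difference was 2.29 for both Gli1 and Ptch1, and the ages overlapped. The part of osteoblast or cartilage content in the Gli1 and Ptch1 values was not tested beyond these values. Summed erythroid and neutrophil markers also stood apart between the ages, the latter at 5.80 to 64.0 CPM in juvenile and 91.4 to 4402 CPM in adult libraries, and their part was not tested.

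Other genes of the hedgehog pathway were taken from fixed lists. Over all tested genes, 3.88% were called and 17.3% had an unadjusted p under 0.05 (edgeR). The counts of each list below are to be read beside these shares. Of 4 tested genes for the making and release of ligands, 0 passed in either direction (edgeR), with 1 at an unadjusted p under 0.05. Disp1, which releases the lipid-bearing ligand from cells, was at 25.2 to 45.4 CPM in juvenile and 9.25 to 36.2 CPM in adult libraries. Scube3, a secreted carrier of the ligand, was at 1.27 to 7.49 CPM and 0.116 to 1.11 CPM (log2 fold change 2.61, SE 0.93, edgeR adjusted p 0.151). Its adult values lay near the floor of detection, and 0.116 CPM in adult replicate 1 was below the floor of 0.347 CPM there. Scube1 went the other way on average, at 1.55 ± 1.51 CPM (SD, n = 5) and 9.24 ± 8.98 CPM (SD, n = 4), and Hhat, the enzyme that adds palmitate to hedgehogs, was at 8.24 and 7.58 CPM on average.

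Among receptors and coreceptors 0 of 4 tested genes passed, and 1, Boc, had an unadjusted p under 0.05 (edgeR). Boc, a coreceptor that helps Patched 1 to bind ligand, was at 55.8, 39.9, 58.1, 71.9 and 64.0 CPM in juvenile and 44.3, 19.4, 16.9 and 13.4 CPM in adult replicates. Adult replicate 1 lay above juvenile replicate 2, and the log2 fold change was 1.30 with SE 0.37 and edgeR adjusted p 0.0711. Gas1, another coreceptor, was at 43.7 to 52.6 CPM and 29.6 to 89.0 CPM with a log2 fold change of -0.13 (SE 0.31), and Cdon averaged 3.65 and 4.83 CPM.

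Genes of transduction and the primary cilium, where Smoothened and the GLI proteins meet, gave 0 calls among 15 tested, with 2 at an unadjusted p under 0.05 (edgeR). The 4 genes with the highest mean CPM, a scale that does not take account of gene length, were Csnk1a1, Spop, Gsk3b and Cul3, which encode kinases and ubiquitin ligase parts that act on GLI proteins, with log2 fold changes of -0.03, 0.34, 0.04 and 0.17. Kif7, the ciliary kinesin that regulates GLI proteins, was singled out after its values were seen. It stood at 12.7 to 32.7 CPM in juvenile and 2.67 to 8.39 CPM in adult libraries, without overlap (log2 fold change 1.85, SE 0.55, edgeR adjusted p 0.0836), and an antisense gene covers 19.1% of its exons. In the Pth1r lists below, Prkar2b and Sost, picked in the same way, were higher in adult libraries, without overlap and not called. Their log2 fold changes were -1.74 (SE 0.54) and -3.40 (SE 1.03), with edgeR adjusted p 0.0954 and 0.0881.

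Among genes known as hedgehog targets elsewhere, 1 of 7 tested passed, higher in juvenile mice, where 1.99% of all tested genes were called in that direction. It was Ccnd2, a D-type cyclin that drives entry into the cell cycle and that many other signals also induce. Its CPM was 228, 198, 197, 249.7 and 219.8 in juvenile replicates 1 to 5 and 65.1, 116, 88.6 and 52.2 in adult replicates 1 to 4. Every juvenile library of Ccnd2 stood above every adult one, with a log2 fold change of 1.44 (SE 0.23) and edgeR adjusted p 0.00569. In alternatives added after its values were seen, the Ccnd2 call was lost with the replicate number as a block (log2 fold change 1.49, edgeR adjusted p 0.0564) and without juvenile replicates 4 and 5 (1.37, edgeR adjusted p 0.0761). Ccnd1, its relative, was at 128 to 189 CPM and 112 to 232 CPM, a log2 fold change of 0.09 with SE 0.24 and edgeR adjusted p 0.91, and Bcl2 gave 0.13 (SE 0.34). Exons of LTO1 cover 23.4% of the Ccnd1 exons on the opposite strand, so its counts could hold reads of that gene. Over the list the median log2 fold change was 0.35.

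**Figure D5:**
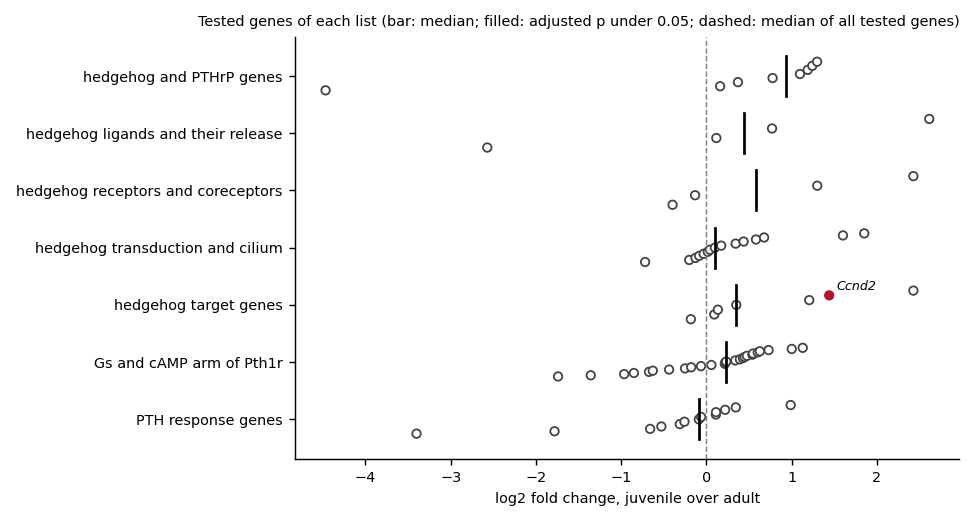
Log2 fold change, juvenile over adult, of each tested gene of the lists (points), with the median of each list (bar) and of all tested genes (dashed line). The filled point, Ccnd2 at 1.44, is the gene of these lists with an adjusted p under 0.05.

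Downstream of Pth1r, 0 of 26 tested genes of the G protein and cyclic AMP arm passed, where 3.88% of all tested genes did. At an unadjusted p under 0.05 in edgeR there were 7, in both directions, where 17.3% of all tested genes passed. The median log2 fold change of this arm was 0.23. Gnas, which encodes the stimulatory G protein that the receptor activates, was at 981 to 1316 CPM in juvenile and 667 to 911 CPM in adult libraries, without overlap (log2 fold change 0.43, SE 0.15, edgeR adjusted p 0.151). Exons of Gm20721 cover 13.1% of the Gnas exons on the opposite strand and held 3901 to 9256 counts, so the Gnas value is uncertain. Mef2c, a transcription factor of chondrocyte hypertrophy that PTHrP signalling restrains, was at 284 to 531 CPM and 315 to 326 CPM. Gnai2 and Prkar1a, an inhibitory G protein and a regulatory subunit of protein kinase A, had log2 fold changes of 0.23 and 0.22.

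Genes that parathyroid hormone is known to induce or repress in bone cells gave 0 calls among 13 tested, with a median of -0.09. Of the 13, 3 had an unadjusted p under 0.05 (edgeR), where 17.3% of all tested genes did. Mmp13, a collagenase of hypertrophic cartilage and osteoblasts, stood at 2829 to 5563 CPM and 3053 to 4107 CPM, with a log2 fold change of 0.11 (SE 0.19). Fos, an immediate early gene, was at 3.19 to 46.0 CPM in juvenile and 26.3 to 119 CPM in adult libraries (log2 fold change -1.78, SE 0.61, edgeR adjusted p 0.134). Rgs2, a regulator of G protein signalling, and Efnb2, the gene of ephrin B2, gave -0.31 (SE 0.50) and -0.66 (SE 0.30).

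Across the 9 libraries, the tested genes most like a given member were those with the smallest root mean square difference in log2 CPM after the mean of each gene was removed. For Gli1 they were Adamts10, Smurf1 and Zfp704, at 0.24, 0.27 and 0.27, where the median over all tested genes was 0.99. Adamts10 stood at 83.1 to 146 CPM in juvenile and 42.9 to 85.8 CPM in adult libraries, so its ages overlapped. For Ptch1 they were Slc25a24, Enpp2 and Zbtb7b, at 0.34, 0.37 and 0.37 against a median of 1.04. Enpp2, which encodes the secreted enzyme autotaxin, was itself called, with a log2 fold change of 1.33 and an adjusted p of 0.0356 in edgeR's quasi-likelihood test. For Ihh they were Sez6l2, Calhm6 and Prkaa2, at 1.01, 1.09 and 1.11 against 2.55, all sparse genes whose highest libraries were adult.

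The DNA end points of the pathways are the GLI site, here GACCACCCA, and the cyclic AMP response element (CRE), TGACGTCA. Both were searched on both strands in the RefSeq promoter windows of GRCm38.p6, which reach from 250 bases before to 50 bases after a gene's start. Of the 9 genes, 8 had 10 windows, and Gli1 had none in the table. The GLI letters were in 0 of the 10 windows and in 0.253% of all 32851 windows. The CRE letters were in 1 of the 10, that of Hhip, and in 1.79% of all windows. The Hhip window, chr8:80057959-80058258 on the minus strand, is shown because it is the one member window that holds a motif searched, with the CRE in capitals, 75 to 68 bases before the start:

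Hhip: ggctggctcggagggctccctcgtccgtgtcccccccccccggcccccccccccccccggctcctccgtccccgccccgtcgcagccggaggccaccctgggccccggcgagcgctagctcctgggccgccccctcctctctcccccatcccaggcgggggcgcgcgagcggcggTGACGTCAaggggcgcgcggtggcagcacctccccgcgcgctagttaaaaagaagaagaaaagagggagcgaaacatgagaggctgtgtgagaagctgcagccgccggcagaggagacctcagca

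The match describes these letters and not a bound site, and the counts give no reading of factor binding. Windows without a match say only that the exact letters are not within these bases.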

How the data were processed

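RNA from laser-microdissected capillaries of the OF was sequenced as 5 juvenile and 4 adult libraries. The authors mapped paired-end reads to mm10 using Bowtie2 and TopHat2 defaults, and the submitters' processing notes also name featureCounts. The deposited tables hold raw counts for 39179 Ensembl genes per library. Strand setting and annotation release are not given in the sources used here. Gene symbols, positions and exon lengths came from GENCODE M21 (GRCm38), which held 37693 of the identifiers. Groups were taken from the sample titles.

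Counts were fitted across all genes with edgeR 4.0.16 under R 4.3.3 (filterByExpr defaults, TMM, quasi-likelihood F test of age without covariates), with Benjamini-Hochberg adjustment over all tested genes and calls under 0.05. The study describes the libraries as coming from different mice, which the sample labels do not number, and p-values measure the spread between these libraries. A prior count of 2 was added before log2 CPM were taken. TPM used the union of annotated exons. DESeq2 1.42.0, which the study used, limma 3.58.1 voom, other scalings and filters, thinning, a replicate block and leaving libraries out were alternatives. No library pair of the 36 was identical. The fit was tested on simulated counts. The genes and lists were chosen with earlier results of these data known. The genes named are all 9 genes, any called gene and the 4 genes of highest mean CPM in each pathway list, and, for the 3 genes with the smallest adjusted p, the 3 most similar tested genes. One gene that this rule names is not reported here. Of the lists, Lect1 was entered as an older name of Cnmd and has no row. Figures were drawn with matplotlib 3.10.9.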

Additional observations from a re-analysis of the deposited data

Results flagged for a closer look

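A library stood apart from the others of its age, by the ratio of its gap to the range of the group (Dixon's 95% limit), in 5 of 18 groups of 4 or 5 libraries, and chance flags about 1 in 20 such groups. That rate does not hold for the juvenile Ihh group or for either Pthlh group. In these, all but 1 library held 0 counts, so that the ratio was 1 by construction. Ihh at 2.12 CPM and Pthlh at 3.82 CPM were both in juvenile replicate 5, where the other juvenile libraries held 0 counts of either gene. Pthlh at 9.94 CPM in adult replicate 1 stood against 0 counts in the other adult libraries. Gli3 in juvenile replicate 4 was at 43.9 CPM against 19.5 to 25.5 CPM (gap over range 0.754). Pth1r in adult replicate 2 was at 847 CPM against 539 to 588 CPM (gap over range 0.841).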

How the results depend on the processing

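In the edgeR test 0 of the 8 tested genes were called, and this number stayed at 0 in every alternative except DESeq2's default settings, which called 1. Over all genes, 520 were called, with 1490 under DESeq2's default settings, 89 with the replicate number as a block, 73 without juvenile replicates 4 and 5, and 262 to 651 when single libraries were omitted. The direction of every tested gene's log2 fold change held in all alternatives that could fit it, except that of Smo, which ran from -0.022 (without adult replicate 4) to 0.28 with single libraries omitted. Ihh could not be fitted after thinning or without juvenile replicate 5, because it no longer passed the filter. Against the median in place of the mean of the osteoblast markers, the difference between the ages became 0.40 for Pth1r, 0.19 for Smo, 1.17 for Gli1 and 1.18 for Ptch1. Both the mean and the median take in the osteocalcin genes, which were higher in adult libraries. Equal replicate numbers join mice of different ages, and the deviations of such libraries did not go together (0 of 4 pairs correlated over 0.1), although 3 of 4 juvenile libraries correlated best with their own number. The block left the number of called hedgehog and PTHrP genes at 0. Ccnd2 gave 1.49 with the block and 1.37 without juvenile replicates 4 and 5, no longer called in either, and 1.26 to 1.65 over all its alternatives, which were chosen after seeing the data. By counting error alone, a library at 0 counts of a gene allows up to 0.347 to 0.638 CPM of it, and 0.347 CPM in adult replicate 1, the library without Hhip.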
